A study of Mus musculus with 22 samples.

Results

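miR-7a-5p was followed through small RNA libraries of 2 hypothalamic nuclei, the arcuate nucleus (ARC) and the paraventricular nucleus (PVH). It is 1 of the 172 miRNAs in the deposited tables, and its row, mmu-miR-7a-5p, was taken by name. The mice were wild-type C57BL/6J males of 8 weeks, kept on chow and killed in the fed state. Off-Ob mice were born to mothers made obese by a high-fat diet with condensed milk, and Off-C mice to mothers on control chow. Tissue was cut from frozen brain sections by laser capture, and 1 male per litter was used for each outcome. There were 5 Off-Ob and 6 Off-C libraries in each nucleus, 22 in all, from 12 mice. Of these mice, 4 Off-Ob and 6 Off-C mice gave both nuclei, while Off-Ob mouse F6A gave only an ARC library and Off-Ob mouse F14A only a PVH library here. The ARC and PVH libraries were sequenced in separate pools, so nucleus and pool cannot be told apart.

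A miRNA is a short RNA cut from a hairpin, and its seed, bases 2 to 8, pairs with messenger RNAs that are then repressed. miR-7 is an ancient miRNA that is abundant in hormone-releasing cells of the hypothalamus, the pituitary and the pancreatic islet. In brain it is bound by the circular RNA Cdr1as, and the long noncoding RNA Cyrano drives its decay. In mice, miR-7 in Sim1 neurons, which include most neurons of the PVH, has been tied to food intake and body weight. The ARC senses leptin, insulin and nutrients and signals to the PVH, so both nuclei belong to the circuit that sets appetite.

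The mature sequences are shown because mouse miR-7 comes from several hairpins whose products differ by a few bases. Sequences are those of RefSeq on GRCm38.p6, 5′ to 3′, with the seed in capitals.
miR-7a-5p: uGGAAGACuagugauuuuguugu
miR-7b-5p: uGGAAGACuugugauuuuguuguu
miR-7a-1-3p: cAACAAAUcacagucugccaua
miR-7a-2-3p: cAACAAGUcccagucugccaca
Hairpins Mir7-1 and Mir7-2 give the identical miR-7a-5p of 23 bases, so its reads cannot be split between them. miR-7b-5p has the same seed, 1 substitution (A10U, counted from the 5′ end with the miR-7a base first) and 1 more base at the 3′ end. In the RefSeq table, which 148 of the 172 listed names matched, these were the 2 of 1679 mature names that carry this seed. The opposite arms do tell the hairpins apart, because miR-7a-1-3p and miR-7a-2-3p differ at A7G, A10C and U21C.

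The hairpins are shown with both mature arms in capitals, the 5p arm first.
Mir7-1: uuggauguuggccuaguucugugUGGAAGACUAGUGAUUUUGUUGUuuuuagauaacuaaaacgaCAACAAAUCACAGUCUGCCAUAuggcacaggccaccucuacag
Mir7-2: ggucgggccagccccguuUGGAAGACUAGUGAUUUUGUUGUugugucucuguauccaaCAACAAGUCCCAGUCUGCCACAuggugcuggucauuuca
Mir7b: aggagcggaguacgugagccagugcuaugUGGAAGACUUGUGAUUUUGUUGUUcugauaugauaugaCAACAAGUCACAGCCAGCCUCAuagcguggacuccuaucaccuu
Mir7-1 lies at chr13:58392779-58392886 on the minus strand, inside an intron of Hnrnpk, which encodes an RNA-binding protein and runs on the same strand. Mir7-2 lies at chr7:78888277-78888373 and Mir7b at chr17:56242988-56243098, both on the plus strand and overlapping no other annotated gene. Of the opposite arms, miR-7a-1-3p and miR-7a-2-3p were listed, whereas miR-7b-3p and both arms of miR-671, which cuts Cdr1as, were not among the 172 miRNAs.

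miR-7a-5p was among the most read miRNAs of both nuclei, with 162032 of the 964620 listed reads over the 22 libraries. Libraries held 22495 to 91790 reads, and the ARC library of F42A, with 22680, was the shallowest of its nucleus. Its miR-7a-5p share of 6.65% still had a 95% Wilson interval of only 6.34% to 6.99%, which covers counting error. In the Off-Ob ARC the share was 12.2% in F6A, 21.9% in F12A, 23.4% in F13A, 19.8% in F41A and 6.65% in F42A. In the Off-C ARC it ran between 15.2% and 21.9%, with a median of 20.2%. F6A and F42A thus lay below every Off-C library, and F13A above. F12A (21.94%) and the highest Off-C library, RC9A (21.90%), were level within counting error. The Off-Ob PVH had a share of 17.8% in F12A, 16.4% in F13A, 15.4% in F14A, 13.7% in F41A and 11.7% in F42A. The Off-C PVH libraries lay between 11.1% and 15.2%, with a median of 13.5%, so 3 Off-Ob libraries of the PVH stood above all of them. Of these, F14A (15.41%) was level within counting error with the highest Off-C library, RC13A (15.17%).

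The mean share was 16.8% ± 7.13 (SD, n = 5) in the Off-Ob ARC and 19.0% ± 2.88 (SD, n = 6) in the Off-C ARC. It was 15.0% ± 2.35 (SD, n = 5) in the Off-Ob PVH and 13.5% ± 1.55 (SD, n = 6) in the Off-C PVH. The order from high to low was thus Off-C ARC, Off-Ob ARC, Off-Ob PVH and Off-C PVH, and the ranges of neighbours in this order overlapped. The wide spread of the Off-Ob ARC came with the let-7 family, the other large group of reads, which took 79.1% of the reads of F42A and 64.2% of those of F6A. In the other 20 libraries let-7 took 30.5% to 46.8%. A high share of one family lowers the share of every other miRNA, so the share outside let-7 was computed as well.

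Outside let-7, miR-7a-5p made up 33.9% ± 1.79 (SD, n = 5) of the reads in the Off-Ob ARC and 30.8% ± 2.62 (SD, n = 6) in the Off-C ARC. On this denominator F6A had 34.0%, and F42A had 31.8%, still the lowest of the Off-Ob ARC. Both then lay within the 26.4% to 34.2% of the Off-C ARC, which they did not on all listed reads. In the Off-Ob PVH it made up 23.3% ± 4.22 (SD, n = 5) and in the Off-C PVH 21.6% ± 2.51 (SD, n = 6). In F42A the PVH value, 17.2%, was the lowest of the 22 libraries.

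**Figure D1:**
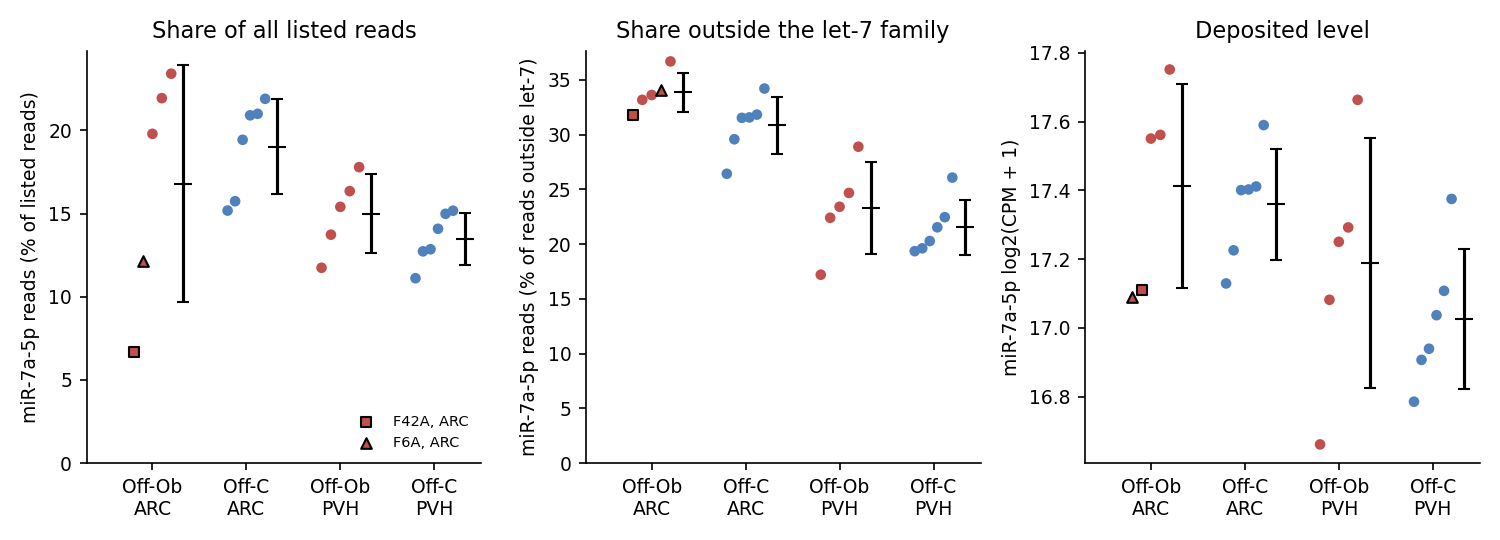
miR-7a-5p in each library, as percent of all listed reads, as percent of reads outside the let-7 family and as the deposited log2(CPM + 1). Points are libraries (red Off-Ob, blue Off-C), the bar beside them is mean ± SD, and the ARC libraries of F42A (square, 6.65%) and F6A (triangle, 12.2%) lie at 31.8% and 34.0% once let-7 reads are set aside.

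miR-7a-5p was the most or second most abundant miRNA in 21 of the 22 libraries and the fourth in the ARC of F42A. Its neighbours in the level order were let-7 members, apart from miR-328-3p at 15.69 in the Off-C PVH. let-7c-5p, of the let-7 family that rises as cells mature, measured 17.69 ± 1.23 on the deposited log2(CPM + 1) scale in the Off-Ob ARC, where miR-7a-5p measured 17.41 ± 0.30 (SD, n = 5). In the Off-C ARC miR-7a-5p was first at 17.36 ± 0.16, before let-7c-5p at 16.91 ± 0.38 (SD, n = 6). In the Off-Ob PVH it was first at 17.19 ± 0.36 and let-7c-5p second at 16.92 ± 0.29 (SD, n = 5). In the Off-C PVH let-7c-5p at 17.04 ± 0.41 and miR-7a-5p at 17.03 ± 0.20 (SD, n = 6) did not differ beyond their spread, and each was the higher of the pair in 3 of 6 libraries. let-7g-5p came next in every group, and miR-7a-5p exceeded it in all 22 libraries, by a mean of 0.98 to 1.42 on the log2 scale per group.

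Maternal obesity was not followed by a detectable difference of miR-7a-5p in the ARC. The 5 Off-Ob libraries had log2(CPM + 1) values of 17.09 in F6A, 17.55 in F12A, 17.75 in F13A, 17.56 in F41A and 17.11 in F42A, against 17.13 to 17.59 in the 6 Off-C libraries, with a median of 17.40. The groups overlapped, with 1 Off-Ob library above and 2 below all Off-C libraries. The log2 difference, Off-Ob minus Off-C, was 0.05 (SE 0.19, 95% interval -0.35 to 0.46, adjusted p = 0.90 from limma over the 172 miRNAs), and an exact permutation test gave p = 0.72, two-sided. By this threshold 0 of the 172 miRNAs were called in the ARC (0%), and 10 (5.81%) had an unadjusted p under 0.05. The median log2 difference over all 172 was -0.16. The sign for miR-7a-5p turned to -0.31 when plain shares were used and to -0.27 after quantile normalization, neither past the threshold. Quantile normalization sets each value by its rank, and miR-7a-5p ranked 1 to 4 in the ARC libraries. The quantile value thus follows that rank and not the level of miR-7a-5p. Outside let-7 the difference was 0.14, with all 5 Off-Ob libraries above the Off-C mean (exact permutation p = 0.056, 0.113 adjusted over the 4 comparisons made on that scale). In dissected tissue, fewer cells of a type and less RNA per cell cannot be told apart.

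In the PVH the miR-7a-5p level also did not differ between Off-Ob and Off-C mice beyond the spread. The Off-Ob libraries had 17.66 in F12A, 17.29 in F13A, 17.25 in F14A, 17.08 in F41A and 16.66 in F42A on the log2(CPM + 1) scale, against 16.79 to 17.38 in the Off-C libraries, with a median of 16.99. 4 of 5 Off-Ob libraries lay above the Off-C mean, and the groups overlapped. The log2 difference was 0.16 (SE 0.17, 95% interval -0.20 to 0.53, adjusted p = 0.98 from limma), with an exact permutation p of 0.37, two-sided. None of the 172 miRNAs was called there by limma (0%), none had an unadjusted p under 0.05, and the median over all was 0.05. Without F42A, the lowest library, the log2 difference was 0.30, still not past the threshold.

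The response to maternal obesity was not shown to differ between the nuclei. The ARC effect minus the PVH effect on miR-7a-5p was -0.12 (SE 0.26, 95% interval -0.66 to 0.42, adjusted p = 0.88 from limma, blocked by mouse). Over the mice with both nuclei, ARC minus PVH was 0.32 ± 0.29 in 4 Off-Ob and 0.33 ± 0.24 in 6 Off-C mice on the deposited log2 scale (SD, exact permutation p = 0.90). None of the 172 miRNAs was called in this contrast (0%), and 5 (2.91%) had an unadjusted p under 0.05.

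Between the nuclei, miR-7a-5p took a larger share of the listed reads in the ARC than in the PVH of 9 of the 10 mice that gave both. The ARC and PVH shares were 21.9% and 17.8% in F12A, 23.4% and 16.4% in F13A, and 19.8% and 13.7% in F41A. F42A was the exception, with 6.65% in the ARC and 11.7% in the PVH. In the 6 Off-C mice the ARC share was 1.05 to 1.70 times the PVH share, lowest in RC12A and highest in RC9A. The mean log2 difference over the 10 mice was 0.35 (exact paired permutation p = 0.041, two-sided, 0.164 adjusted over the 4 comparisons of miR-7a-5p). The limma fit used 1 within-mouse correlation for all miRNAs, -0.13, whereas miR-7a-5p had r = 0.56 over the 10 mice on the log2 share. Across all 22 libraries, limma on the log2 share gave 0.26 (SE 0.18, 95% interval -0.12 to 0.64, adjusted p = 0.30), which did not pass the threshold.

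That result turned on the ARC library of F42A and on the let-7 reads. Without this library the log2 difference was 0.41 (adjusted p = 0.022), and without all libraries of F42A and F6A it was 0.48 (adjusted p = 0.0010, both from limma). With reads outside let-7 as the total it was 0.54 (adjusted p = 0.00065), and with median-ratio scaling 0.66 (adjusted p = 0.0015). Quantile normalization turned the sign, to -0.12 (adjusted p = 0.64). That value follows the rank of miR-7a-5p, 1 to 4 in the ARC and 1 to 2 in the PVH, and does not measure its level. Outside let-7 the ARC share was above the PVH share in 10 of 10 mice, from 33.6% against 28.9% in F12A to 31.8% against 17.2% in F42A. The mean log2 difference was then 0.54 (exact paired permutation p = 0.0020, the smallest that 10 pairs allow, 0.0078 adjusted over the 4 comparisons on that scale). In Off-Ob mice alone 4 pairs cannot give a p under 0.125, and in the 6 Off-C mice the paired p was 0.031 for both denominators, the smallest possible there.

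**Figure D2:**
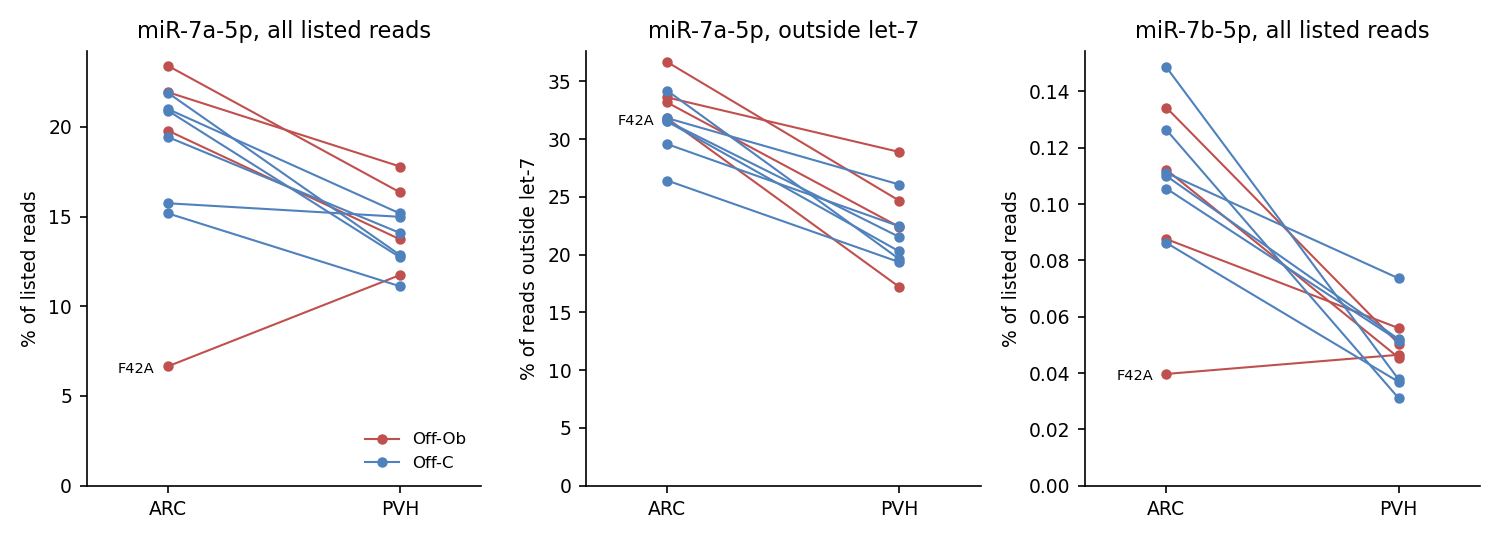
Share of reads in the ARC and PVH of each of the 10 mice with both libraries, joined by a line (red Off-Ob, blue Off-C). miR-7a-5p is higher in the ARC of 9 of 10 mice on all listed reads and of 10 of 10 outside let-7, and miR-7b-5p of 9 of 10, with F42A the exception.

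Most miRNAs that differed between the nuclei on the log2 share went the other way. limma called 37 of 172 miRNAs (21.5%) between ARC and PVH, 3 higher in the ARC (1.74%) and 34 lower (19.8%). The split depended on the scaling, with 15 higher and 17 lower after median-ratio scaling and 15 higher and 14 lower after quantile normalization. The median log2 difference over the 172 was -0.38. Relative to that median miR-7a-5p stood 0.64 higher in the ARC. This gap was 0.60 to 0.72 under the alternatives apart from quantile normalization, where it was -0.13 and followed the rank of miR-7a-5p. Counted from the highest, its log2 difference ranked 24th of 172. For Off-Ob mice, as a contrast within the fit of all 22 libraries, 20.9% of miRNAs were called. The miR-7a-5p difference there was 0.03 (adjusted p = 0.93), beside a median of -0.70. For Off-C mice in the same fit, where 4.07% were called, it was 0.49 (adjusted p = 0.46), beside a median of -0.12. Both contrasts take their spread from both maternal groups. They are on plain shares, and let-7 took 79.1% and 64.2% of the reads in the Off-Ob ARC libraries of F42A and F6A. Outside let-7, over mice with both nuclei, the mean log2 difference of miR-7a-5p was alike, 0.56 in 4 Off-Ob and 0.52 in 6 Off-C mice.

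**Figure D3:**
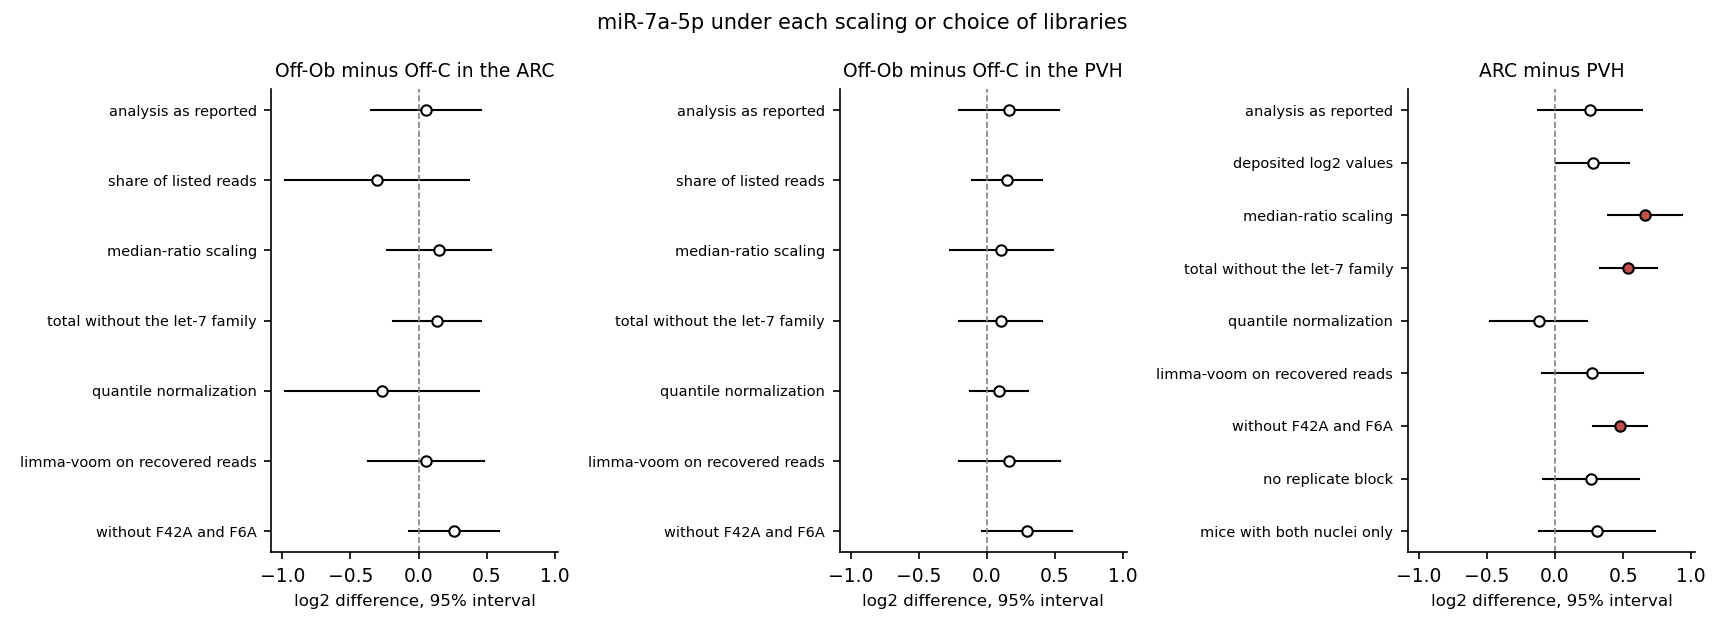
log2 difference of miR-7a-5p with its 95% interval for Off-Ob minus Off-C in the ARC, Off-Ob minus Off-C in the PVH and ARC minus PVH, under each scaling or choice of libraries. Filled points passed an adjusted p of 0.05, which happened for ARC minus PVH alone, with median-ratio scaling (0.66), without let-7 (0.54) and without F42A and F6A (0.48).

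Marker miRNAs of other cells were counted in the same contrast, in which 19.8% of all 172 miRNAs were called lower in the ARC and 1.74% higher on the log2 share, with fewer lower calls (17 and 14) under the median-ratio and quantile scalings. Of the 11 neuronal miRNAs on the list, 9 were listed, and 5 of them were called lower in the ARC. Their summed share was 0.410% to 3.03% in the Off-Ob ARC and 2.08% to 3.11% in the Off-C ARC, against 4.07% to 5.39% in the Off-Ob PVH and 3.43% to 5.51% in the Off-C PVH. miR-9-5p, which is made by neurons and their progenitors, had a log2 difference of -1.84 (SE 0.42, adjusted p = 0.0039 from limma), opposite in sign to miR-7a-5p. miR-153-3p, the other abundant member, was at -0.74 and was not called (adjusted p = 0.21). Of the vessel miRNAs 3 of 4 were listed and 2 were called lower, among them miR-126-5p of endothelial cells at -1.12 (SE 0.24, adjusted p = 0.0019), while miR-143-3p of smooth muscle was at -0.56 and was not called (adjusted p = 0.085). Their summed share was 0.507% to 1.24% in the Off-Ob ARC and 0.855% to 2.62% in the Off-C ARC, against 2.03% to 2.40% in the Off-Ob PVH and 2.00% to 3.25% in the Off-C PVH. Of the oligodendrocyte miRNAs 2 of 3 were listed, at no more than 0.0592% in any library. Of these miR-219-2-3p was called lower (-1.10, adjusted p = 0.028) and miR-338-3p was not (-1.30, adjusted p = 0.17). miR-211-5p, the 1 listed miRNA of 6 for ependyma and choroid plexus, took up to 0.286% and was not called (0.74, adjusted p = 0.105). No listed miRNA came from the lists for microglia (4 miRNAs), red cells (4) or pituitary and other hormone-releasing cells (9, which held miR-375-3p and the miR-200 family). Of the let-7 family all 10 members were listed and 1 was called higher in the ARC, which was neither let-7c-5p (0.31, adjusted p = 0.21) nor let-7g-5p (0.12, adjusted p = 0.44), the most abundant. The part of these markers in the miR-7a-5p values was not tested.

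miR-7b-5p, which carries the same seed, was a far rarer product and was higher in the ARC. It had 575 reads in the ARC and 212 in the PVH, beside 98764 and 63268 of miR-7a-5p. In the Off-Ob ARC the reads were 46 in F6A, 74 in F12A, 41 in F13A, 103 in F41A and 9 in F42A, and in the Off-C ARC 31 to 77, with a median of 46. In the Off-Ob PVH they were 31 in F12A, 16 in F13A, 17 in F14A, 25 in F41A and 12 in F42A, and in the Off-C PVH 7 to 31, with a median of 16. As a share of listed reads this was 0.0397% to 0.149% in the ARC and 0.0311% to 0.0736% in the PVH, higher in the ARC of 9 of 10 mice. The log2 difference was 1.11 (SE 0.21, 95% interval 0.67 to 1.55, adjusted p = 0.00071 from limma), which made it 1 of the 3 miRNAs called higher in the ARC. As contrasts within the limma fit of all 22 libraries, it passed for Off-Ob mice (0.90, adjusted p = 0.044) and for Off-C mice (1.32, adjusted p = 0.012). Both contrasts take their spread from both maternal groups. Over the maternal groups together, miR-7b-5p also passed under each alternative scaling run and with any 1 library left out. Maternal obesity was not followed by a difference, with -0.01 in the ARC (adjusted p = 0.96) and 0.07 in the PVH (adjusted p = 0.98).

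The ratio within a library, which needs no scaling and was chosen after the values had been seen, set the paralogs side by side. There were 173 ± 37.8 miR-7a-5p reads per miR-7b-5p read in the ARC and 312 ± 70.8 in the PVH (SD, n = 11 each). In the Off-Ob ARC the ratio was 125 in F6A, 163 in F12A, 267 in F13A, 176 in F41A and 168 in F42A. For the Off-Ob PVH it was 353 in F12A, 292 in F13A, 398 in F14A, 302 in F41A and 253 in F42A. The share of miR-7b-5p relative to miR-7a-5p was larger in the ARC of 10 of 10 mice, by a mean log2 difference of 0.76 (exact paired permutation p = 0.0020, the smallest possible, 0.016 adjusted over the 8 ratio tests). miR-7b-5p differs from miR-7a-5p at 1 internal base, and how reads with a mismatch were assigned is not given in the sources used here. Here too, nucleus and sequencing pool cannot be told apart.

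**Figure D4:**
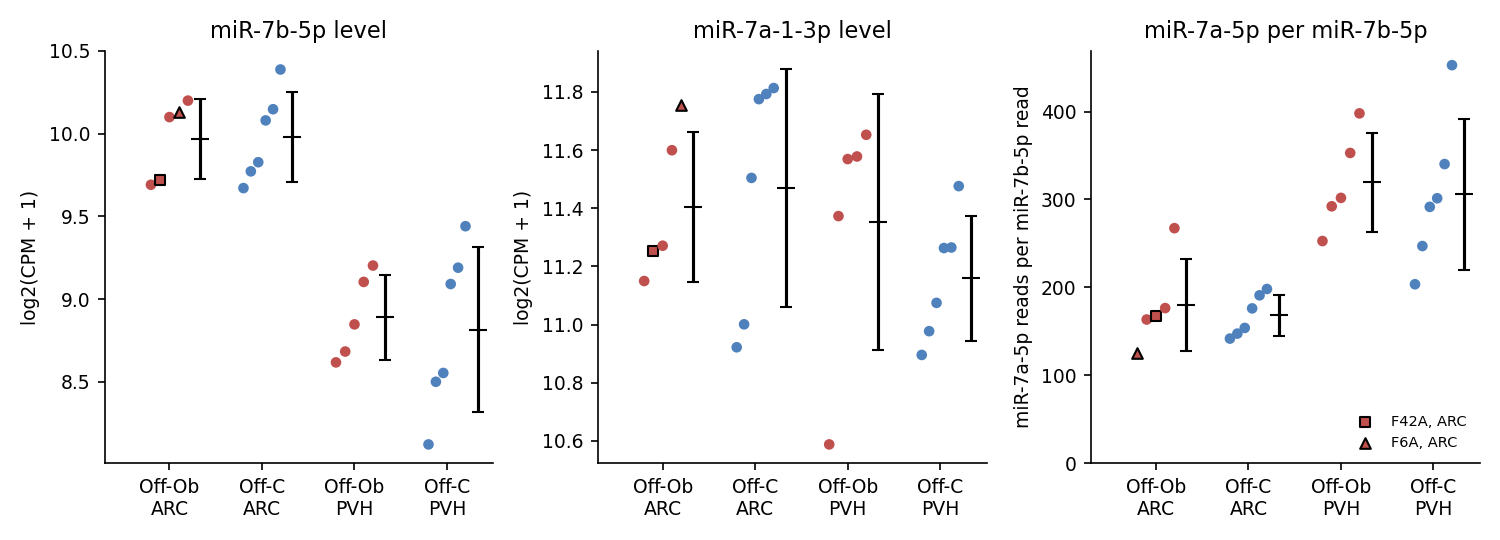
miR-7b-5p and miR-7a-1-3p as deposited log2(CPM + 1), and miR-7a-5p reads per miR-7b-5p read, in each library (red Off-Ob, blue Off-C, mean ± SD beside the points, square F42A and triangle F6A of the ARC). The ratio averages 173 in the ARC, against 312 in the PVH.

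The opposite arms placed most of the distinguishable hairpin reads on Mir7-1, the copy inside Hnrnpk. Over all libraries there were 2631 reads of miR-7a-1-3p and 141 of miR-7a-2-3p, so that Mir7-1 gave 94.9% of them (95% Wilson interval 94.0 to 95.7, counting error only). The share was 95.5% in the ARC and 94.1% in the PVH. miR-7a-1-3p had 142, 143, 154, 232 and 26 reads in the Off-Ob ARC libraries of F6A, F12A, F13A, F41A and F42A, against 94 to 167 in the Off-C ARC. In the Off-Ob PVH it had 160, 89, 115, 175 and 45 reads in F12A, F13A, F14A, F41A and F42A, against 48 to 131 in the Off-C PVH. The groups overlapped in both nuclei.

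In the analysis as reported, miR-7a-1-3p passed the threshold in none of the comparisons. Its log2 difference was -0.06 for Off-Ob minus Off-C in the ARC (adjusted p = 0.90), 0.19 in the PVH (adjusted p = 0.98) and 0.17 for ARC minus PVH (SE 0.19, adjusted p = 0.50, all from limma). Median-ratio scaling gave 0.57 for ARC minus PVH (adjusted p = 0.023) and quantile normalization 0.71 (adjusted p = 0.011), both past the threshold. With each library left out in turn, the PVH difference was 0.12 (without F41A) to 0.38 (without F42A), and ARC minus PVH was 0.06 (without the PVH of F42A) to 0.31 (without its ARC), none past the threshold. miR-7a-5p outnumbered this arm 64.3 ± 18.9 to 1 in the ARC and 58.5 ± 8.75 to 1 in the PVH (SD, n = 11 each), and the log2 ratio differed by 0.15 between the nuclei (exact paired permutation p = 0.375, higher in the ARC of 6 of 10 mice). miR-7a-2-3p had 0 to 13 reads per library, and its 0 reads in the ARC of F42A allow a share of up to 0.0132%. Its log2 difference for ARC minus PVH was -0.89 (SE 0.69, adjusted p = 0.34), which that library moved, with -0.20 without it.

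The level of miR-7a-5p in the ARC and PVH of the same mouse was described over the 10 mice with both. On the deposited log2 scale Pearson's r was 0.58 and Spearman's rho 0.45, and on the log2 share r was 0.56 and rho 0.70. By share of listed reads F42A was the lowest of the 10 mice in the ARC and the second lowest in the PVH, where RC8A had 11.1%.

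The miRNAs whose log2 share was most like that of miR-7a-5p over the 22 libraries, among 135 others with a mean of at least 10 reads, were miR-194-5p (r = 0.76), miR-146a-5p (0.75), miR-21a-5p (0.72), miR-361-5p (0.71) and miR-346-5p (0.69). Without the ARC libraries of F42A and F6A, r was 0.51, 0.49, 0.34, 0.28 and 0.33 in that order. All values in a library share its depth and its let-7 reads, and the median r over the 135 miRNAs was 0.34 with these 2 libraries and -0.16 without them. miR-7b-5p came 8th with r = 0.68, which was 0.80 without those 2 libraries, and miR-7a-1-3p 13th with r = 0.64. The most unlike were miR-485-5p (r = -0.76), miR-383-5p (-0.74) and let-7d-5p (-0.69), at -0.73, -0.58 and -0.36 without the 2 libraries.

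Within a nucleus, on the deposited log2 values, other miRNAs stood closest to miR-7a-5p. In the 11 ARC libraries they were miR-128-3p (r = 0.83) and miR-495-3p (0.82), both abundant in brain, and miR-134-5p (0.82), which acts at dendrites, beside a median r of 0.22 over all miRNAs compared. In the 11 PVH libraries they were miR-24-3p (0.84), let-7g-5p (0.82) and miR-7a-1-3p (0.75), the opposite arm of its own hairpin, beside a median of 0.02. In the ARC, miR-7a-1-3p had r = -0.27 with miR-7a-5p, and miR-7b-5p had r = 0.23, close to the median there. The difference between the nuclei in these correlations was not tested.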

How the data were processed

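miRNAs of the ARC and PVH were measured by small RNA sequencing in 22 samples. Per the labels and methods, the authors made TruSeq Small RNA libraries, mapped reads with Bowtie 1.2.3 to GRCm38 and used edgeR 3.36.0. The deposited tables hold log2(CPM + 1) of 172 miRNAs, where the authors divided reads by the library total times a scale factor. Their methods name RPKM, whereas these log2 values carry no length term. The miRNA annotation, the treatment of reads matching several miRNAs and the filter behind the 172 are not given in the sources used here. Columns give the group, and mice came from the deposited identifier sheet.

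Whole reads were recovered from the log2 values: all 3784 lay within 0.01 of a whole read, and 1 read was worth 10.6 to 93.8 CPM. Counting intervals cover counting error only, since PCR copies without identifiers do not count molecules, and a count of 0 allows 3 reads. limma 3.58.1 in R 4.3.3 (eBayes with trend, Benjamini-Hochberg over all miRNAs, CPM of 1 in at least 5 libraries, threshold 0.05) compared Off-Ob with Off-C on the log2 values. The tables were normalized separately, so ARC and PVH were compared on the log2 of their share of listed reads, with the mouse as a block. The pairing comes from the animal itself; the profiles of its libraries deviated from their group means with r of -0.42 to 0.15, and the consensus correlation was -0.13. The steps were tested on simulated data. Permutation tests used Python 3.11.15 with NumPy 2.4.6, Wilson intervals SciPy 1.17.1 and figures matplotlib 3.10.9. Positions are from GENCODE M21 and RefSeq, in which 148 of the 172 names matched.

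miR-7a-5p and the lists were chosen with earlier results of these data known. The named miRNAs are the miR-7 family and miR-671, the 2 neighbours on each side in level, the most like and unlike by Pearson's r, and the 2 most abundant members of each marker list. Alternatives were pseudocounts of 0.5 and 10, other scalings, no filter or a CPM minimum of 100, limma without trend, with robust or with voom, no block, paired mice only, and libraries left out. The ratios of miR-7 products were added after seeing the data.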

Additional observations from a re-analysis of the deposited data

Results flagged for a closer look

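2 of the 36 groups tested over 9 measures held a library far from the others of its group, where chance gives about 1 in 20. Both were libraries of Off-Ob mouse F42A. In the Off-Ob PVH its miR-7a-1-3p level was 10.59 on the log2(CPM + 1) scale (45 reads), and the next library had 11.37. In the Off-Ob ARC its miR-7a-2-3p level was 0 (0 reads), and the next library, F12A, had 6.59 (6 reads). In the ARC library of F42A 1 read was worth 93.8 CPM, so this gap rests on a count of 0 at low depth. The miR-7a-5p level of F42A was not set apart in this way in either nucleus.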

How the results depend on the processing

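For ARC minus PVH of miR-7a-5p, reported as a log2 difference of 0.26, the threshold was passed with median-ratio scaling (0.66), with the total without let-7 (0.54), without the libraries of F42A and F6A (0.48) and without the ARC library of F42A (0.41), and quantile normalization turned it to -0.12. With 1 library left out it ran between 0.15 (without the PVH library of F42A) and 0.41. Setting aside the let-7 reads changes the total of each library by construction, and leaving out a library changes the mean of its group. Otherwise the cause was not tested. Quantile normalization sets each value by its rank, so for miR-7a-5p, ranked 1 to 4 in each library, it does not measure the level. With no mouse block, pairing ignored, ARC minus PVH of miR-7a-5p was 0.26 and the ARC effect minus the PVH effect was -0.11. The block changed no call of the miR-7 family. No block by replicate number could be fitted between Off-Ob and Off-C, since the columns carry no such number. Off-Ob minus Off-C of miR-7a-5p in the ARC turned to -0.27 with quantile normalization and -0.31 with plain shares, and ran between -0.032 and 0.13 with 1 library left out, against 0.05 to 0.30 in the PVH. The ARC effect minus the PVH effect turned to 0.036 with the total without let-7 and was -0.46 at the lowest of the alternatives. It ran between -0.29 and -0.00064 with 1 library left out. With reads outside let-7 as denominator the mean share was 33.9% in the Off-Ob ARC, 30.8% in the Off-C ARC, 23.3% in the Off-Ob PVH and 21.6% in the Off-C PVH, and with 1 library left out of all listed reads these shares ran between 15.1% and 19.3%, 18.5% and 19.8%, 14.3% and 15.8%, and 13.2% and 14.0%. For miR-7b-5p, ARC minus PVH kept its call throughout (1.03 to 1.53). Its Off-Ob minus Off-C in the ARC turned to 0.086 with median ratios, 0.071 without let-7, 0.15 with quantiles, 0.014 with voom and 0.016 without F42A and F6A, and its ARC effect minus PVH effect to 0.075 without let-7 and 0.13 with quantiles. With 1 library left out these ran between -0.075 and 0.069 and between -0.21 and 0.055, and Off-Ob minus Off-C in the PVH between -0.064 and 0.20. For miR-7a-1-3p, Off-Ob minus Off-C in the ARC turned to 0.036 with median ratios, 0.021 without let-7 and 0.0029 with quantiles, and ran between -0.17 and 0.0062 with 1 library left out. For miR-7a-2-3p, ARC minus PVH turned to 0.025 with quantiles, and Off-Ob minus Off-C in the PVH ran between -0.036 and 0.27 with 1 library left out. No miR-7 product passed the threshold under any alternative for Off-Ob minus Off-C or for the ARC effect minus the PVH effect. For ARC minus PVH, miR-7a-2-3p did not pass either, while miR-7a-1-3p passed with median-ratio scaling and with quantile normalization (0.71). Between ARC and PVH limma called 37 of 172 miRNAs, 59 on the deposited log2 values, 59 without the ARC library of F12A and 23 over mice with both nuclei only. The filter left all 172 miRNAs, so the alternative without it moved nothing. With 5 and 6 libraries a group, and 1 miR-7b-5p read worth at least 10.6 CPM, small changes of the rarer miR-7 products could not be detected.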
